A study of Mus musculus with 7 samples.

Results

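Canonical target genes of p53 were followed by function in mouse liver 8 h after carbon tetrachloride (CCl4). The list held 48 genes, chosen by name with earlier results of these data known. They were *Trp53*, which encodes p53, and 47 genes known to be switched on by p53 or to act in its feedback. Genes were found in the table of 14851 genes by Ensembl identifier, which gave 46, and 44 of these had a mean normalised count of at least 10 and were tested. *Zfp365* and *Spata18* were not analysed here. *Rgcc* and *Ak1* lay under that mean. The livers came from 4 *Albumin-Cre; p53FL/FL* mice (FL), which carry floxed *Trp53* on both chromosomes, and from 3 *Albumin-Cre; p53 WT* mice (WT), which have that Cre too but unaltered *Trp53*. In both genotypes Cre was driven by the *Albumin* promoter, which is active in hepatocytes, so other cells of an FL liver may keep their *Trp53*. All mice were C57BL/6J males about 70 days old that had received 1 intraperitoneal injection of CCl4 (1 mL/kg of a 20% stock in corn oil), a solvent that hepatocytes convert into reactive radicals. The study's methods add that a *Rosa26* LSL-tdRFP reporter was present in part of both cohorts, and do not name the mice. Untreated livers were not analysed here, so the values compare genotypes after injury and give no induction by CCl4. In the labels the source names begin alike for all WT livers and in 2 other ways for the FL livers, so genotype and the origin of the mice cannot be told apart.

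The p53 protein is a transcription factor that is held at low levels by MDM2, a ubiquitin ligase, and is released when DNA or other cell components are damaged. It then binds a pair of adjoining motifs near its targets, whose products stop the cell cycle, trigger cell death, repair DNA, adjust metabolism or feed back on p53 itself. In liver it is known as a tumour suppressor, and which of these branches is engaged depends on the cell type and the stress.

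To show the element through which such genes are known to respond, the promoters of the listed genes were searched for 2 adjoining p53 consensus motifs of 10 bases each, with no spacer, at most 2 mismatches over the 20 bases and every C and G of the motif cores intact. The motif equals its own reverse complement, so both strands were covered. RefSeq promoter windows of GRCm38.p6, from 250 bases before to 50 bases after the start, were at hand for 40 of the 48 genes, and 4 of them held such an element. Among all 27025 genes with a window, 0.392% did. The elements are printed 5′ to 3′ on the strand of the gene, and the capitals mark the C and G of each core.
*Cdkn1a* (chr17:29090928-29090947, plus strand): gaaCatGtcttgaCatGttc
*Ccng1* (chr11:40755462-40755481, minus strand): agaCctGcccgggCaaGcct
*Rps27l* (chr9:66946296-66946315, plus strand): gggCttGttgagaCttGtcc
*Zfp365* (chr10:67912706-67912725, minus strand): agaCtaGgctgggCaaGact
The elements of *Cdkn1a*, *Ccng1* and *Rps27l* had 1 mismatch each and that of *Zfp365* had 2. They lay at positions -195 to -32 relative to the start on which each window was set. Whether that is the main start of the gene was not examined. The element of *Rps27l* lies downstream of the GENCODE start of that gene (66946086). A match is a description of sequence, and elements farther from the start, where many known p53 sites lie, were outside the window. The promoters of *Ddb2*, *Perp*, *Pmaip1*, *Rrm2b*, *Tnfrsf10b*, *Trp53inp1*, *Xpc* and *Zmat3* were not searched.

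The deposited values are read counts per gene that the authors divided by DESeq2 size factors and rounded. The spacing of the low values gave 11.9 to 19.5 M estimated reads per liver. WT replicate 2 and FL replicate 3 stood apart from the other 5 livers: on the first principal component, with 66.7% of the variance, they lay at 82.0 and 29.2, and the others between -25.6 and -19.1. The hepatocyte markers in the table (7) were all abundant, the lowest single value being 8666, and summed to between 1485812 and 1929904 in FL livers and between 1274570 and 1589139 in WT livers. Proliferation markers summed to 2029 in WT replicate 2, to 690 in FL replicate 3 and to between 336 and 430 in the others, and 12 of 13 were highest in WT replicate 2. In that liver macrophage markers summed to 18442 (11 of 12 highest there; 6864 to 11105 elsewhere) and stellate cell markers to 10310 (7 of 8 highest there; 5607 to 6736 elsewhere). For the other cell types the marker sums of the genotypes overlapped: endothelial cells 3887 to 4532 in FL and 3571 to 4919 in WT livers, bile duct cells 603 to 1482 and 879 to 1204, neutrophils 44 to 122 and 66 to 180, lymphocytes 33 to 110 and 27 to 197. The highest endothelial, neutrophil and lymphocyte sums were also those of WT replicate 2 (6 of 8, 2 of 5 and 6 of 6 markers highest there). Among the FL livers, replicate 3 had the highest macrophage, stellate cell, endothelial, neutrophil and lymphocyte sums and the lowest bile duct sum. Single markers could still separate the genotypes. Of the 5 bile duct markers, 2 were lower and 1 higher in all FL livers than in any WT liver. Of the 7 hepatocyte markers, 1 was higher. The shares of all tested genes were 1.98% lower and 2.77% higher. No marker in the table was at 0 in every liver, and 0 of the tested markers passed the threshold.

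*Trp53* itself was lower in every FL liver, as a check of the labels. Its normalised counts were 131, 130, 217 and 110 in FL livers 1 to 4 and 876, 688 and 831 in WT livers 1 to 3. The groups did not overlap, and FL replicate 3 was the highest of its group. The FL mean, 147 ± 47.7 (SD, n = 4), was 18.4% of the WT mean, 798 ± 98.2 (SD, n = 3). By limma on log2(normalised count + 1), with Benjamini-Hochberg adjustment over 12545 genes, the log2 fold change was -2.47 ± 0.23 (SE; adjusted p = 0.0447), where negative values are lower in FL livers. Permuting the livers over all 35 splits, exact and two-sided, gave p = 0.029, the smallest possible here. This p is unadjusted, and where groups do not overlap it is largely set by that separation, here and for the genes below. It therefore adds no separate support. *Trp53* lies on chromosome 11 of GRCm38 from 69580359 to 69591873. The floxed allele is known to remove exons 2 to 10, and 38.4% of the bases of the main transcript lie in exons 1 and 11, which stay in the genome. Counts per gene do not separate reads from those exons, from undeleted hepatocytes and from other cells. The pseudogene *Trp53-ps* shares 7.07% of the 36-base stretches of *Trp53*. In whole liver, fewer cells of a type and less RNA per cell cannot be told apart either, here and for every gene below.

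Beyond *Trp53*, 1 of the other 43 tested genes passed the threshold, the death receptor gene *Eda2r*, and no listed gene was higher in FL livers at that threshold. *Eda2r* reached the mean of 10 needed for testing only through its WT livers (means 97 in WT and 6.25 in FL). The same held for *Tnfrsf10b* (37 and 8.5), and for *Psrc1* through WT replicate 2 alone. Over all tested genes, 0.0159% passed and were lower in FL livers, and 0.0% passed and were higher. The genotypes separated, with all FL livers lower, in 5 listed genes, against 1.98% of all tested genes: *Trp53*, *Eda2r*, *Ccng1*, *Zmat3* and *Bax*. Of these, the study had already called *Trp53*, *Eda2r*, *Ccng1* and *Zmat3* as differing in these livers, at an adjusted p under 0.05 by DESeq2. The list was chosen with that known, so its counts beside those of all genes are a description. None had every FL liver above every WT liver, against 2.77% of all tested genes. At an unadjusted limma p under 0.05, 8 listed genes were lower in FL livers and 0 higher, against 1.6% and 1.59% of all genes. By the sign of the fold change 24 of 44 were lower, against 48.4% of all genes. Scaling the livers to the same total, which moved the median of all genes to -0.10, turned 9 of the other 20 to lower, and 50.8% of the higher genes overall. The median log2 fold change was -0.13 over the listed genes and 0.01 over all genes, and it was 0.02 for the listed genes without WT replicate 2. For 34 of 44 the 95% interval lay wholly above a 2-fold fall, against 83.4% of all tested genes, and for 29 it lay within 2-fold either way, against 77.7%.

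**Figure D1:**
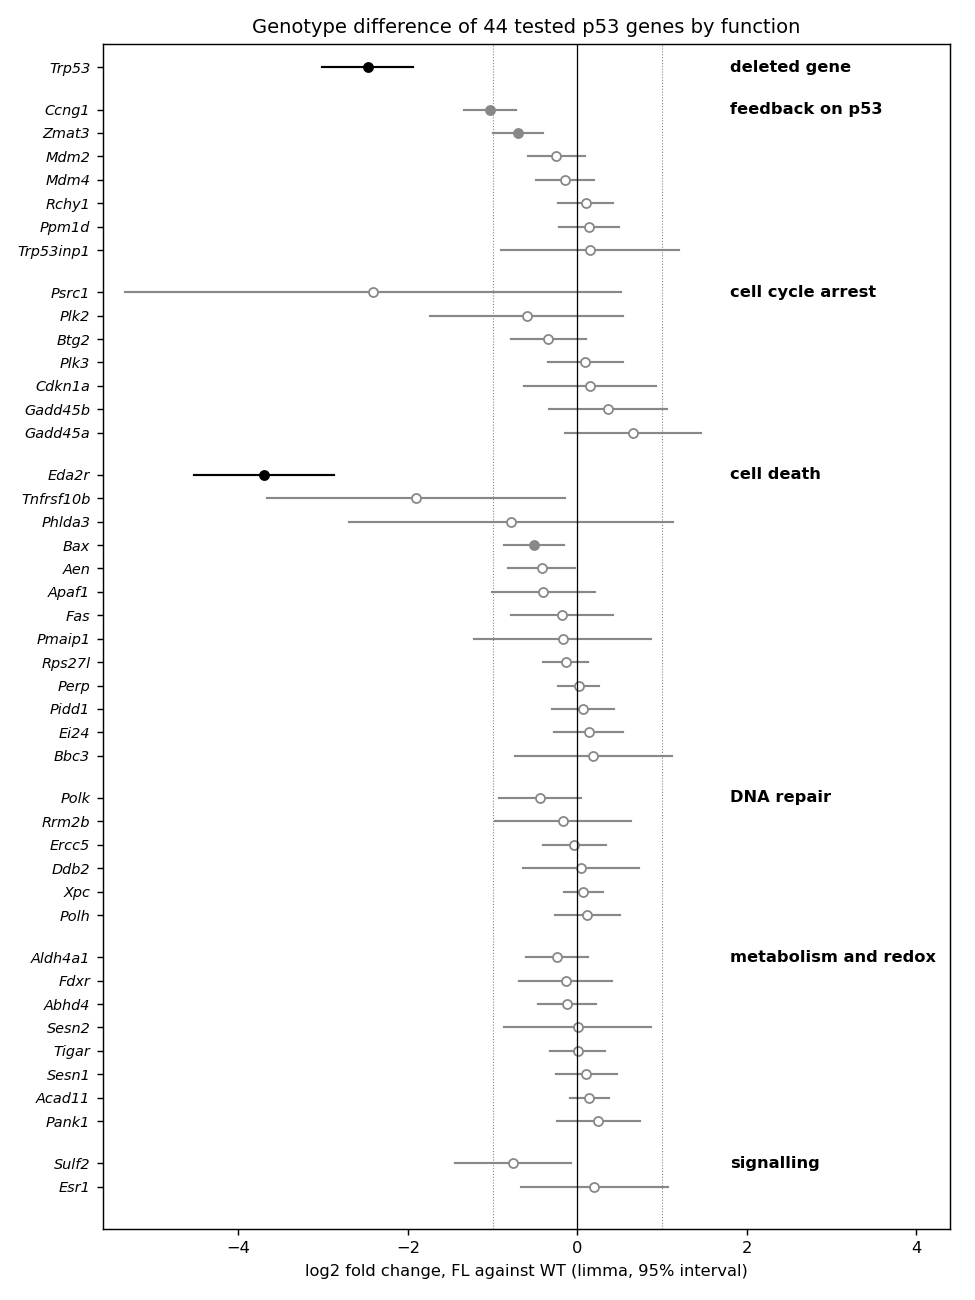
Log2 fold change of each tested gene, FL against WT, with its 95% interval from limma, in blocks by function. Black marks an adjusted p under 0.05 and filled circles mark genes with all FL livers below all WT livers; dotted lines stand at a 2-fold change. *Trp53* (-2.47) and *Eda2r* (-3.70) stand far to the left, and most other intervals cross 0.

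Among the genes that feed back on p53, *Ccng1* and *Zmat3* were lower in every FL liver than in any WT liver. Neither passed adjustment over all genes in the limma fit to rounded normalised counts used here, whereas both passed in the study's DESeq2 fit. *Ccng1* encodes cyclin G1, which recruits a phosphatase that activates MDM2, and it lies on the chromosome of *Trp53* (chromosome 11, 40748552 to 40755311). It had 395, 384, 353 and 351 normalised counts in FL livers 1 to 4 and 626, 816 and 848 in WT livers 1 to 3. The FL livers lay close together and all well under the lowest WT liver, at 48.6% of the WT mean. Its log2 fold change was -1.03 ± 0.13 (SE; limma adjusted p = 0.254), and the exact permutation test gave p = 0.029. Its promoter holds 1 of the elements printed above. *Zmat3* (chromosome 3, 32334792 to 32366014) encodes an RNA-binding zinc finger protein. It had 316, 334, 252 and 289 normalised counts across FL livers and 453, 499 and 497 in WT livers. The WT livers differed little among themselves and the FL mean was 61.6% of theirs. The log2 fold change was -0.70 ± 0.13 (SE; limma adjusted p = 0.999, exact permutation p = 0.029).

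*Mdm2*, the main brake on p53 and a direct target of it, had 1182, 1174, 941 and 960 normalised counts across FL livers and 1470, 1072 and 1253 in WT livers. The groups overlapped through WT replicate 2. The log2 fold change was -0.25, with a 95% interval from -0.59 to 0.09 (limma adjusted p = 0.999), so a fall as large as that of *Ccng1* lay outside the interval. The other feedback genes gave log2 fold changes from -0.14 to 0.15: *Mdm4*, which binds and inhibits p53, -0.14, *Rchy1*, a ubiquitin ligase, 0.10, the phosphatase gene *Ppm1d* 0.14 and *Trp53inp1*, a stress protein gene, 0.15. *Trp53inp1* was the most variable of them, with 715 to 2455 normalised counts across FL livers and 944 to 1925 in WT livers, and its lowest values were those of FL replicate 3 and WT replicate 2. Of the 36-base stretches of *Mdm4*, 11.1% recur in *Mdm4-ps*, and *Rchy1* overlaps *Thap6* on the other strand.

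**Figure D2:**
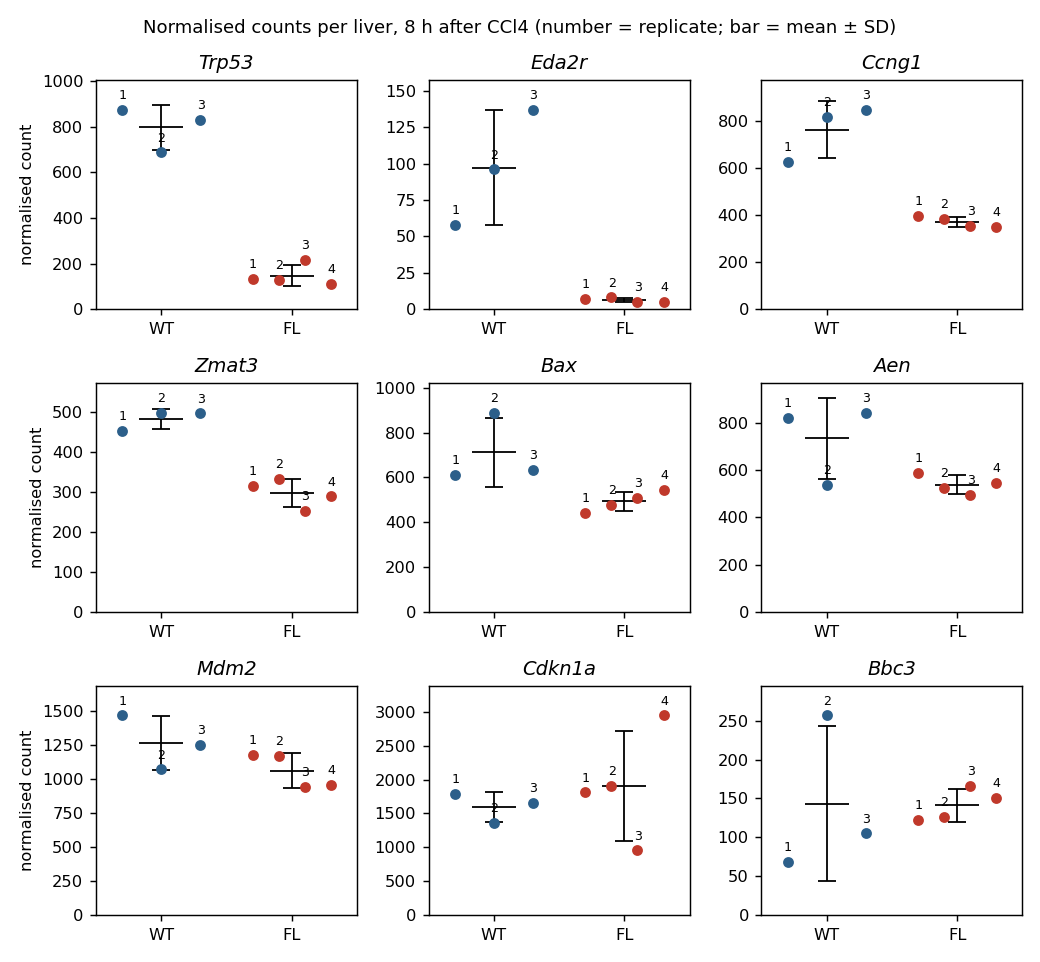
Normalised counts (vertical axis, from 0) of 9 genes in each liver of the WT and FL groups; points are livers with their replicate number, and bars give the mean ± SD. The FL and WT points do not overlap for *Trp53*, *Eda2r*, *Ccng1*, *Zmat3* and *Bax*, and they overlap for *Aen*, *Mdm2*, *Cdkn1a* and *Bbc3*.

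Of the 13 genes of cell death, *Eda2r* fell in FL livers beyond the threshold, *Bax* was lower in every FL liver without passing it, and the other 11 overlapped between genotypes. *Eda2r* encodes a receptor of the tumour necrosis factor family for the ectodysplasin isoform EDA-A2 and lies on chromosome X (97333840 to 97377216). It had 7, 8, 5 and 5 normalised counts across FL livers and 58, 96 and 137 in WT livers. The WT livers differed by more than 2-fold among themselves, and the FL livers were all close to the floor of detection, set at 3 counts. The FL livers averaged 6.44% of the WT livers, the log2 fold change was -3.70 ± 0.36 (SE; limma adjusted p = 0.0447), and the exact permutation test gave p = 0.029. None of its exon bases overlapped another gene and none of its 36-base stretches recurred elsewhere.

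*Bax* (chromosome 7, 45461697 to 45466898), whose product opens the outer mitochondrial membrane in apoptosis, had 443, 479, 507 and 543 normalised counts across FL livers and 611, 889 and 634 in WT livers. The gap between the highest FL and the lowest WT liver was small, and WT replicate 2 was far above the others of its group. The log2 fold change was -0.51 ± 0.16 (SE; limma adjusted p = 0.999, exact permutation p = 0.029), and -0.34 without WT replicate 2. Of its exon bases, 12.2% overlap *Gm45808* on the same strand. *Tnfrsf10b*, the gene of the TRAIL death receptor, had 3, 8, 19 and 4 normalised counts across FL livers and 11, 74 and 26 in WT livers. It overlapped through FL replicate 3, and its log2 fold change was -1.90 ± 0.76 (SE; limma adjusted p = 0.999), or -1.22 without WT replicate 2. *Aen*, which encodes an apoptosis-enhancing nuclease, had 589, 526, 494 and 548 normalised counts across FL livers and 822, 539 and 844 in WT livers. Here WT replicate 2 lay among the FL livers and the other WT livers lay well above them. Its log2 fold change was -0.42 ± 0.17 (SE; limma adjusted p = 0.999) in all livers and -0.63 without WT replicate 2.

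*Bbc3*, the gene of the BH3-only protein PUMA, had 122, 126, 166 and 151 normalised counts across FL livers and 68, 257 and 105 in WT livers. The FL livers lay between WT replicate 2 and the other WT livers, and the log2 fold change was 0.19 ± 0.40 (SE; limma adjusted p = 0.999). Without WT replicate 2 it was 0.72 (adjusted p = 0.789; 0.363 to 1 over the alternatives). *Pmaip1*, the gene of the BH3-only protein NOXA, had 12 to 29 normalised counts in FL and 14 to 39 in WT livers, and *Phlda3*, the gene of an inhibitor of AKT, had 14 to 28 and 11 to 180, the 180 being WT replicate 2. The log2 fold changes of these genes were -0.17 and -0.79, and their 95% intervals reached beyond a 2-fold fall. The remaining log2 fold changes were -0.40 for *Apaf1*, the apoptosome scaffold, -0.18 for the death receptor gene *Fas*, -0.14 for *Rps27l*, a ribosomal protein paralog, 0.02 for *Perp*, a desmosomal membrane protein gene, 0.07 for *Pidd1*, the gene of a caspase-2 platform, and 0.13 for *Ei24*. Without WT replicate 2, *Apaf1* gave -0.11, *Fas* 0.10, *Rps27l* -0.04 and *Ei24* 0.34. *Rps27l*, with an element in its promoter, had 566 to 635 normalised counts in FL and 595 to 751 in WT livers, and its 95% interval ran from -0.40 to 0.13. For *Rps27l*, 14.7% of 36-base stretches recur in other genes.

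Of the 7 tested genes of cell cycle arrest, 0 passed the threshold and 0 separated the genotypes. *Cdkn1a*, which encodes the cyclin-dependent kinase inhibitor p21 and is the target by which p53 activity is most often read, had 1810, 1901, 952 and 2946 normalised counts across FL livers and 1787, 1355 and 1658 in WT livers. The FL livers held both the highest and the lowest value, and all WT livers lay between them. The log2 fold change was 0.15 ± 0.34 (SE; 95% interval -0.63 to 0.93, limma adjusted p = 0.999), so that the interval ran from 0.648-fold to 1.90-fold. Its promoter window holds the p53 element printed above, at positions -51 to -32 relative to the start on which the window was set. The 3 tested genes with an element, *Cdkn1a*, *Rps27l* and *Ccng1*, thus had log2 fold changes of 0.15, -0.14 and -1.03.

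*Gadd45a*, the gene of a stress sensor that binds PCNA, gave a log2 fold change of 0.66 ± 0.35 (SE; limma adjusted p = 0.999), or 0.37 to 0.95 with single livers left out, with 681 to 1480 normalised counts in FL and 426 to 955 in WT livers. Its relative *Gadd45b* gave 0.37 (0.64 without WT replicate 2) and *Plk3*, a stress kinase gene, 0.09. *Btg2*, an antiproliferative gene, gave -0.34 (-0.16 without WT replicate 2) and *Plk2*, a kinase gene of the centrosome, -0.60. *Plk2* had 89 to 220 normalised counts across FL livers, 143 and 130 in WT replicates 1 and 3 and 497 in WT replicate 2, and its log2 fold change was 0.02 without that liver. *Psrc1*, the gene of a spindle protein, had 1, 1, 6 and 0 normalised counts across FL livers and 2, 100 and 5 in WT livers. Its log2 fold change was -2.41 ± 1.27 (SE), and -0.88 without WT replicate 2, the liver with the most proliferation marker RNA. *Rgcc*, a cell cycle regulator gene, had 0, 0, 2 and 1 normalised counts in FL and 6, 4 and 4 in WT livers, too few for the test over genes. Of the exon bases of *Gadd45a*, 19.1% overlap *E230016M11Rik* on the other strand, and 7.68% of those of *Cdkn1a* overlap *AC167363.2*. The libraries were stranded, but whether counting used the strand is not given in the sources used here.

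None of the 6 genes of DNA repair passed the threshold, and in all livers their 95% intervals lay within a 2-fold change either way, as did those of most genes. *Xpc*, which recognises helix distortions in nucleotide excision repair, had 505, 457, 502 and 506 normalised counts across FL livers and 487, 439 and 482 in WT livers. It was among the least variable of the list, with a log2 fold change of 0.07 (95% interval -0.16 to 0.30, limma adjusted p = 0.999). *Ddb2*, the gene of the damaged-DNA sensor of the same pathway, had 43, 47, 50 and 40 normalised counts in FL and 41, 69 and 29 in WT livers. The FL livers lay within the range of the WT livers, and the log2 fold change was 0.04 (95% interval -0.64 to 0.72), or 0.37 without WT replicate 2. Of its exon bases, 23.8% overlap *Acp2* on the other strand. The translesion polymerase genes *Polk* and *Polh* gave -0.44 and 0.12, the nuclease gene *Ercc5* -0.03 and the ribonucleotide reductase subunit gene *Rrm2b* -0.17. *Polk* had 102 to 147 normalised counts in FL livers, against 173 and 194 in WT replicates 1 and 3 and 121 in WT replicate 2. Its log2 fold change was -0.64 without WT replicate 2 (limma adjusted p = 0.789).

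Likewise, the 8 tested genes of metabolism and redox control had log2 fold changes from -0.24 to 0.25, and none passed the threshold. Their 95% intervals, like those of most genes, lay within 2-fold either way. *Sesn1*, the gene of a sestrin that restrains mTORC1 and counters oxidants, had 145, 212, 160 and 162 normalised counts in FL and 153, 152 and 164 in WT livers, and its log2 fold change was 0.10 (limma adjusted p = 0.999). *Sesn2*, its relative, had 1062, 996, 735 and 810 in FL and 1223, 430 and 1326 in WT livers. The WT group was split, with WT replicate 2 lowest and the others highest of all livers, and the log2 fold change, 0.01 in all livers, was -0.52 without WT replicate 2 (adjusted p = 0.789; 0.308 to 1 over the alternatives). *Tigar*, whose product lowers fructose-2,6-bisphosphate, gave 0.01, *Fdxr*, the gene of ferredoxin reductase, -0.13, the proline catabolism gene *Aldh4a1* -0.24, the acyl-CoA dehydrogenase gene *Acad11* 0.14, the coenzyme A synthesis gene *Pank1* 0.25 and the lipase gene *Abhd4* -0.12. Without WT replicate 2, *Aldh4a1* gave -0.07 and *Pank1* 0.10. *Aldh4a1* shares 30.8% of its 36-base stretches with *Gm21969*, so its counts are uncertain. *Ak1*, an adenylate kinase gene, had 0 to 9 normalised counts in FL and 2 to 22 in WT livers.

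Both listed signalling genes missed the threshold. *Sulf2*, which encodes a heparan sulphate 6-O-endosulphatase, had 228, 253, 365 and 232 normalised counts in FL and 324, 734 and 378 in WT livers. FL replicate 3 reached into the WT range and WT replicate 2 stood highest. The log2 fold change was -0.76 ± 0.30 (SE; limma adjusted p = 0.999) in all livers and -0.40 without WT replicate 2. *Esr1*, the oestrogen receptor gene, had 184 to 512 normalised counts in FL and 191 to 343 in WT livers, and its log2 fold change was 0.20, or 0.48 without WT replicate 2.

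Divided by the length of their exons, the listed genes spanned a wide range of levels. The highest over all livers were *Plk3*, *Rps27l*, *Perp*, *Aldh4a1* and *Ei24*, at 916, 764, 666, 666 and 652 normalised counts per kilobase, neighbours whose ranges over livers overlapped. In WT livers *Ccng1* stood at 217 per kilobase, *Trp53* at 197, *Zmat3* at 42.2 and *Eda2r* at 16.5, compared with 450.3 for *Cdkn1a* and 249 for *Mdm2*. In FL livers the levels were 106 for *Ccng1*, 36.3 for *Trp53*, 26.0 for *Zmat3* and 1.06 for *Eda2r*, compared with 535 for *Cdkn1a* and 209 for *Mdm2*. The gene with the largest genotype difference, *Eda2r*, was thus among the lower listed genes even in WT livers, and the 5 highest had log2 fold changes from -0.24 to 0.13.

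**Figure D3:**
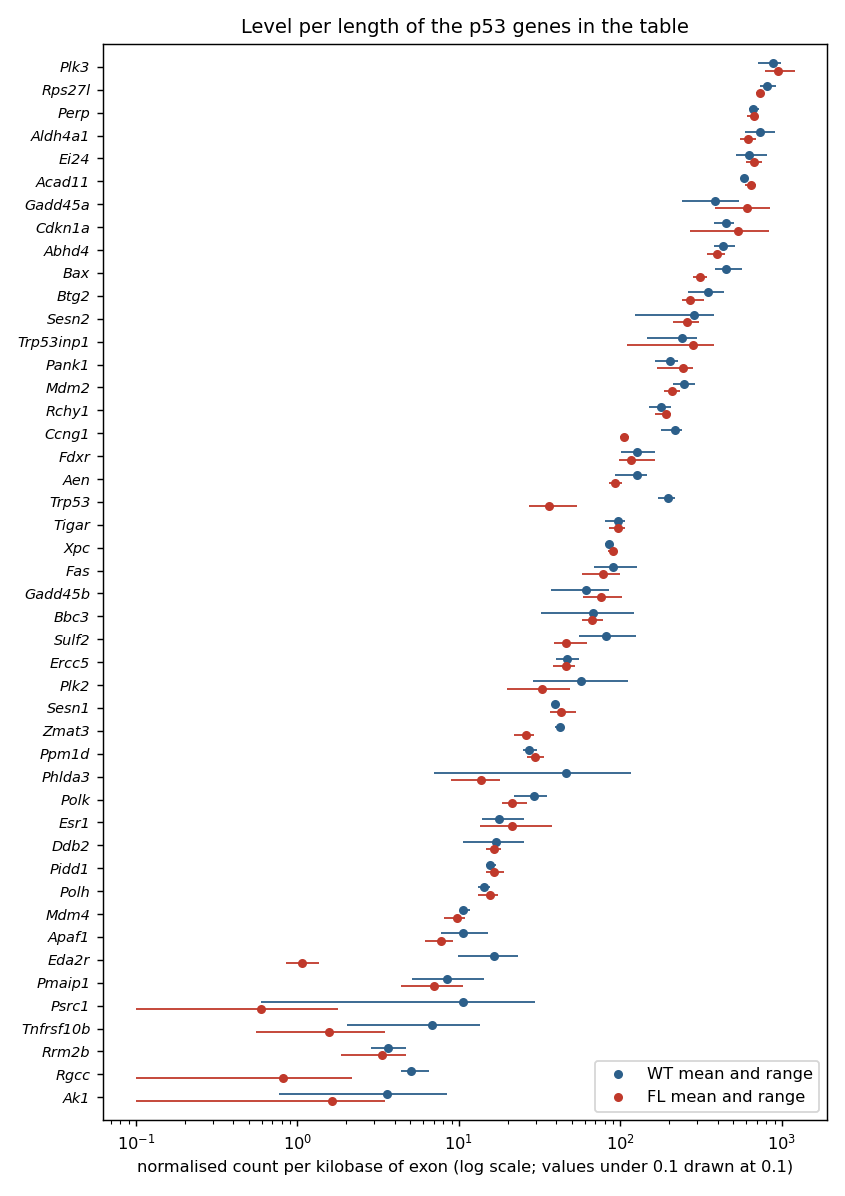
Normalised counts per kilobase of exon (horizontal, log scale) of the 46 listed genes in the table, ordered by their level over all livers; circles are the means and lines the ranges of the 3 WT and 4 FL livers. The ranges separate for *Trp53*, *Eda2r*, *Ccng1*, *Zmat3*, *Bax* and the barely detected *Rgcc*.

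WT replicate 2 was over 2-fold above both other WT livers in 6 of the 44 tested genes, *Bbc3*, *Phlda3*, *Plk2*, *Pmaip1*, *Psrc1* and *Tnfrsf10b*, against 9.26% of all genes, and over 2-fold below both in *Sesn2*, against 6.31%. Of these, *Bbc3*, *Pmaip1*, *Phlda3* and *Tnfrsf10b* belong to cell death. FL replicate 3 was over 2-fold above the other FL livers in *Psrc1* and *Tnfrsf10b* (1.94% of all genes) and over 2-fold below them in *Trp53inp1* (1.24%). *Cdkn1a*, too, was lowest in FL replicate 3. The proliferation, macrophage, stellate, endothelial, neutrophil and lymphocyte marker sums given above were highest in WT replicate 2. Their part in these values was not tested.

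**Figure D4:**
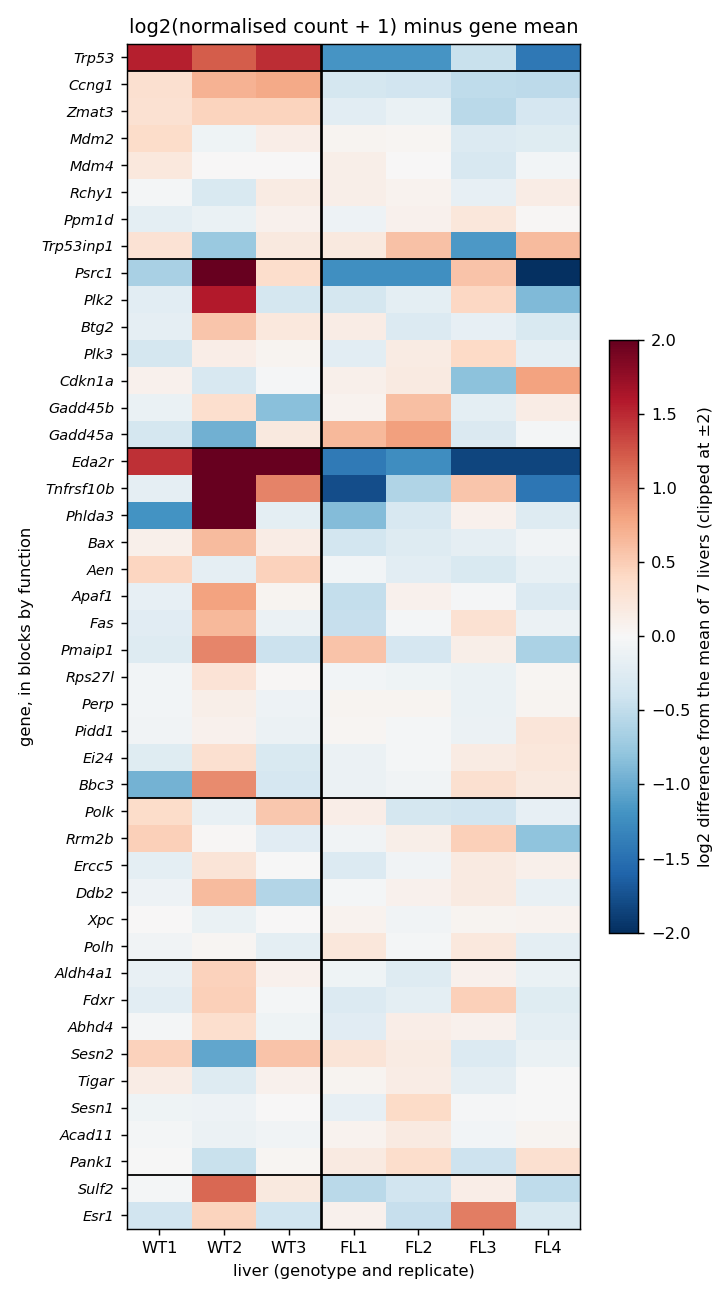
Log2(normalised count + 1) of the 44 tested genes (rows, in blocks by function in the order of the text) in each liver (columns), minus the mean of the gene over the 7 livers; red is higher and blue lower, and colours are clipped at a log2 difference of 2. *Trp53*, *Ccng1*, *Zmat3* and *Eda2r* change colour between the genotypes, and WT2 differs from WT1 and WT3 in the blocks of arrest and cell death.

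In the 5 livers other than WT replicate 2 and FL replicate 3, 2 listed genes passed adjustment, against 0.0478% of all genes. There *Trp53* had a log2 fold change of -2.78 (limma adjusted p = 2.35e-05; 2.35e-05 to 1 over the alternatives) and *Eda2r* one of -3.58 (adjusted p = 0.0258; 0.005 to 1). At an unadjusted p under 0.05, 11 listed genes were lower in FL livers, against 5.2% of all genes, and 5 were higher, against 4.49%. The lower ones were *Trp53*, *Eda2r*, *Ccng1*, *Zmat3*, *Mdm2*, *Bax*, *Aen*, *Tnfrsf10b*, *Polk*, *Sesn2* and *Sulf2*, and the higher ones were *Bbc3*, *Ei24*, *Gadd45a*, *Gadd45b* and *Pank1*. The FL livers all lay below the WT livers for 12 listed genes (14.6% of all genes) and above them for 8 (12.7%). In these livers the log2 fold changes were -0.95 for *Ccng1*, -0.60 for *Zmat3*, -0.59 for *Aen*, -0.35 for *Bax* and -0.30 for *Mdm2*, against 0.33 for *Cdkn1a* and 0.64 for *Bbc3*. The median over the listed genes was -0.02. The 5 livers were picked from earlier results of these data, so these values are a description.

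Leaving out FL replicate 1, 2 or 4 or any of WT replicates 1, 2 and 3 left 0 listed genes past the threshold, and leaving out FL replicate 3 left *Trp53* (adjusted p = 0.00488; 2.35e-05 to 1 over the alternatives) but not *Eda2r*. Fits without a mean-variance trend or with a pseudocount of 5 also left 0. Over the livers left out in turn, the log2 fold changes stayed between -2.68 and -2.35 for *Trp53* and between -4.02 and -3.41 for *Eda2r*. When the leading component of the deviations within groups was a covariate, 7 listed genes passed, all lower in FL livers: *Trp53*, *Eda2r*, *Ccng1*, *Zmat3*, *Bax*, *Aen* and *Sulf2*. That fit passed 144 genes in all. The component came from the same deviations that the test takes as noise. The fold changes of these genes stayed as in the main fit and their errors shrank, for *Bax* from 0.155 to 0.093 (SE). These calls are therefore a description.

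Among 44 further p53 targets, of which 42 were tested, 0 passed the threshold by limma. At an unadjusted limma p under 0.05, 3 were lower in FL livers and 0 higher, against 1.6% and 1.59% of all genes. By sign 21 were lower and 21 higher, and 48.4% of all genes were lower. *Abcb1a*, the gene of a multidrug efflux pump, had 81, 93, 75 and 53 normalised counts in FL and 184, 145 and 178 in WT livers, and its log2 fold change was -1.17 ± 0.21 (SE; limma adjusted p = 0.999). *Foxo3*, a forkhead transcription factor gene, had 361, 443, 456 and 359 in FL and 492, 677 and 670 in WT livers, and its log2 fold change was -0.59 ± 0.16 (SE; limma adjusted p = 0.999). The study had already called *Abcb1a* as differing in these livers by DESeq2, a different test from the limma fit used here. Both *Abcb1a* and *Foxo3* separated the genotypes, with all FL livers lower, as did 1.98% of all tested genes. *Ces2e*, a carboxylesterase gene, did so too, with 1959, 1785, 890 and 1499 in FL and 2246, 2370 and 2327 in WT livers and a log2 fold change of -0.65 ± 0.25 (SE; limma adjusted p = 0.999).

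Genes that act on p53 were named by 25 symbols, of which *Rfwd2* is an older name of *Cop1*, and 21 were tested. None passed the threshold by limma. At an unadjusted limma p under 0.05, 1 was lower and 1 higher, against 1.6% and 1.59% of all genes. *Trp53bp1*, the gene of a DNA break adaptor that binds p53, had 146, 151, 154 and 145 normalised counts in FL and 186, 192 and 165 in WT livers, and its log2 fold change was -0.28 ± 0.12 (SE; limma adjusted p = 0.999). *Daxx*, a histone chaperone gene, had 592, 676, 612 and 707 in FL and 567, 451 and 563 in WT livers, and its log2 fold change was 0.30 ± 0.13 (SE; limma adjusted p = 0.999). Neither overlapped between genotypes. Of all tested genes, 1.98% had every FL liver below every WT liver and 2.77% had every FL liver above. The kinase gene *Atm*, which signals DNA breaks to p53, gave -0.43, the lowest log2 fold change of this list, with 29 to 51 normalised counts in FL and 42 to 82 in WT livers.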

How the data were processed

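Liver RNA of 4 FL and 3 WT mice was measured by stranded polyA RNA-seq. Per the labels and the study's methods, paired-end reads were aligned with Tophat (version 2.0.13) and Bowtie (version 2.2.6.0) to the Ensembl release 75 mouse genome, then counted with HTSeq and normalised with DESeq2. The values the authors deposited are normalised counts rounded to whole numbers, treated here as a score without a fixed unit, so no test on counts was run. Symbols and positions were taken from GENCODE vM21 (GRCm38).

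FL and WT were compared with limma (version 3.58.1, R version 4.3.3; lmFit, eBayes with trend) on log2(normalised count + 1) for the 12545 genes averaging at least 10, which understates the change of low genes. P-values were Benjamini-Hochberg adjusted (threshold 0.05). Single genes were also tested by exact two-sided permutation, without adjustment. The fit was first checked on simulated data, with noise taken from the FL livers other than replicate 3 and independent between genes. In that check the noise was shuffled between genes, so it did not follow their level as the fitted trend assumes. Changes were set only in genes with a mean of at least 50, above that of *Eda2r* (45.1). The check also did not cover the spread added by WT replicate 2 and FL replicate 3. Values in every liver are given for *Trp53*, for listed genes that passed, did not overlap or had an unadjusted p under 0.05, and for the best known effectors; of the other lists, genes with an unadjusted p under 0.05 are named, and *Psrc1* and *Atm* were added after their values were seen. Alternatives were pseudocounts of 0.5 and 5, no filter or a mean of at least 50, quantile normalisation, scaling to the same total, no trend, robust hyperparameters, array weights, a principal component covariate, a replicate block, each liver left out, and 5 livers. The genes, lists and alternatives were chosen with earlier results of these data known. Precision is limited by the number of livers.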

Additional observations from a re-analysis of the deposited data

Results flagged for a closer look

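Among 55 sets of FL values examined (the listed genes, the marker sums and the first principal component), 6 had 1 liver farther from the others than Dixon's 95% critical value for 4 samples. Chance would give about 1 in 20, or 2.8, if the sets were independent. They come from the same 4 livers, so 6 beside 2.8 is a description. FL replicate 3 was the liver in 5 of them. Its *Psrc1* was 6 normalised counts against 0 to 1 in the other FL livers, a difference of few counts. *Perp* was 1178 there against 1345 to 1352, and *Fdxr* was 461 against 273 to 288. Its proliferation markers summed to 690 against 336 to 381, and it lay at 29.2 on the first principal component against -25.6 to -20.7. In FL replicate 2, *Xpc* was 457 normalised counts against 502 to 506. Groups of 3, as the WT livers are, were not examined in this way.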

How the results depend on the processing

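The direction of 23 of the 44 tested listed genes was kept under every alternative, among them *Trp53*, *Eda2r*, *Ccng1*, *Zmat3*, *Bax*, *Aen* and *Mdm2*, and that of 21 was not. With 5 livers, 6 genes passed in all, the listed median was -0.023, 12 listed genes lay below and 8 above, and *Pmaip1* (0.21), *Phlda3* (0.21), *Ercc5* (0.025), *Sesn2* (-0.42) and *Tigar* (-0.059) changed sign. Array weights gave 5 genes in all, 3 of them listed, a median of -0.014, and turned *Rchy1* (-0.0037), *Pmaip1* (0.25), *Phlda3* (0.016), *Sesn2* (-0.40), *Tigar* (-0.041) and *Abhd4* (0.014). The principal component covariate gave 144 genes in all, 7 listed genes and 2 further targets (*Abcb1a* and *Lpin1*). It left the fold changes of the listed genes as in the main fit. It was taken from the deviations that serve as noise in the test, so these calls are a description. A mean of at least 50, which leaves *Eda2r* untested and gave a listed median of 0.0063, fitting without a trend, and a pseudocount of 5 each gave 0 genes, 0 of them listed. Quantile normalisation gave 1 gene, *Trp53*, a median of -0.032, and turned *Pmaip1* (0.018), *Perp* (-0.025), *Rrm2b* (0.058) and *Sesn2* (-0.0054). Scaling to the same total moved the median of all genes to -0.10 and that of the listed genes to -0.24, put 8 listed genes below, and turned *Rchy1* (-0.011), *Plk3* (-0.017), *Perp* (-0.095), *Pidd1* (-0.040), *Xpc* (-0.042), *Ddb2* (-0.067), *Sesn1* (-0.0065), *Sesn2* (-0.10) and *Tigar* (-0.10). The cause of these changes was not tested, beyond the fewer genes tested under the higher mean.

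Replicate numbers occur in both genotypes but are different mice. Deviations of same-numbered livers correlated at 0.44, -0.48 and -0.66 across genes. WT replicate 2 and FL replicate 3 stood apart from the other livers, so these correlations cannot show whether same-numbered livers were paired. A fit with a replicate block passed 0 genes in all and 0 listed genes, 110 genes had an unadjusted p under 0.05, and *Trp53inp1* (-0.037), *Cdkn1a* (-0.098), *Pmaip1* (0.017) and *Rrm2b* (0.080) changed sign.

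Leaving out 1 liver at a time gave 0 to 5 genes in all and 0 to 1 listed, 5 to 9 listed genes below (2.8% to 10.7% of all genes) and 0 to 3 above (3.63% to 8.96%), and a listed median of -0.18 to 0.017. The lists of further targets and regulators stayed at 0. Among the sign changes, the log2 fold change of *Bbc3* ran from -0.23 to 0.72, of *Cdkn1a* from -0.098 to 0.45, of *Phlda3* from -1.61 to 0.35, of *Plk2* from -0.94 to 0.022, of *Sesn2* from -0.52 to 0.30, of *Trp53inp1* from -0.17 to 0.56, of *Pmaip1* from -0.44 to 0.27, of *Rrm2b* from -0.35 to 0.080, of *Ddb2* from -0.24 to 0.37 and of *Esr1* from -0.11 to 0.48. The others ran from -0.20 to 0.013 (*Abhd4*), -0.14 to 0.090 (*Ercc5*), -0.34 to 0.097 (*Fas*), -0.31 to 0.067 (*Fdxr*), -0.027 to 0.080 (*Perp*), -0.054 to 0.19 (*Plk3*), -0.021 to 0.21 (*Rchy1*), -0.0070 to 0.17 (*Sesn1*) and -0.12 to 0.085 (*Tigar*).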
